A study of Sus scrofa with 6 samples.

Results

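Control 2-cell parthenotes of the pig are described here by the abundance of their mRNAs. They are the 3 negative control (NC) libraries of a series of 6, and every one of the 17678 genes in the deposited table was included. The study examined SIN3A, a scaffold protein of histone deacetylase complexes, by injecting siRNA into oocytes and sequencing the mRNA of the resulting embryos; the knockdown libraries are not used here. For each NC library, 20 embryos were pooled at 32 h after activation. The oocytes came from abattoir ovaries of crossbred pigs, were matured in culture, stripped of cumulus cells, injected at metaphase II with a non-specific siRNA and activated without sperm. NC embryos are therefore injected and cultured parthenotes with maternal chromosomes only, and an uninjected or fertilized embryo was not analysed here. Poly(A) RNA was selected with oligo(dT) beads, so an mRNA with a short tail may be under-represented. In pooled embryos, fewer cells holding a transcript and less transcript per cell cannot be told apart.

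A mammalian egg stops most transcription before ovulation and carries a store of maternal mRNA into the first cleavages. Part of that store is kept silent with a short poly(A) tail and is translated when the tail is lengthened, while other maternal mRNAs are deadenylated and degraded. In the pig, the major activation of the embryonic genome follows at the 4-cell stage, so a 2-cell embryo still relies largely on maternal products.

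The signal was the authors' normalized abundance of each gene, which follows the number of reads and so grows with mRNA length. It summed to 11367665, 11404476 and 11084950 in NC replicates 1, 2 and 3. A value above 0 was present for 15742, 15628 and 16142 genes in turn. Many low values lay on multiples of a small step, taken as the value of 1 read, which was 1.04 in replicate 1, 1.46 in replicate 2 and 0.855 in replicate 3. At that step the sums correspond to about 10900000, 7800000 and 13000000 reads, so replicate 3 was read most deeply and replicate 2 least.

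Abundance was concentrated in few genes. The 10 genes with the highest mean held 11.7% ± 0.699 (SD, n = 3 libraries) of the summed value and the 100 highest held 25.5% ± 0.835. A share of 50% was reached with 580 genes and of 90% with 3741. A mean of at least 100 was found for 7251 genes, 41.0% of the table, and these held 98.2% of the sum. Only 105 genes had a mean of at least 10000 and 3 of at least 100000. At the other end, 523 genes were listed at 0 in all 3 libraries and 2707 were above 0 in 1 or 2 of them. The highest mean among the latter was 118, that of the unnamed gene ENSSSCG00000039624, which was at 0, 159 and 195 in replicates 1, 2 and 3.

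The gene with the highest mean has no name in the table or in the reference used. ENSSSCG00000032395 was at 449678, 581640 and 472033 in NC replicates 1, 2 and 3, which is 4.44% ± 0.593 of the summed value (SD, n = 3). DNMT1, the methyltransferase that maintains CpG methylation after replication, followed with 310640, 288202 and 257780. COX1, a subunit of cytochrome c oxidase encoded by the mitochondrial genome, had 151876, 149387 and 127582. The value of every library kept these genes in this order, and the ranges did not overlap. UHRF2, a RING finger protein that binds modified cytosine and histone H3, was at 95810, 88638 and 80175. NUP214, a nucleoporin on the cytoplasmic side of the nuclear pore, was at 71566, 77472 and 69683. These ranges also stood apart from each other and from that of the next gene, ATP6.

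**Figure D1:**
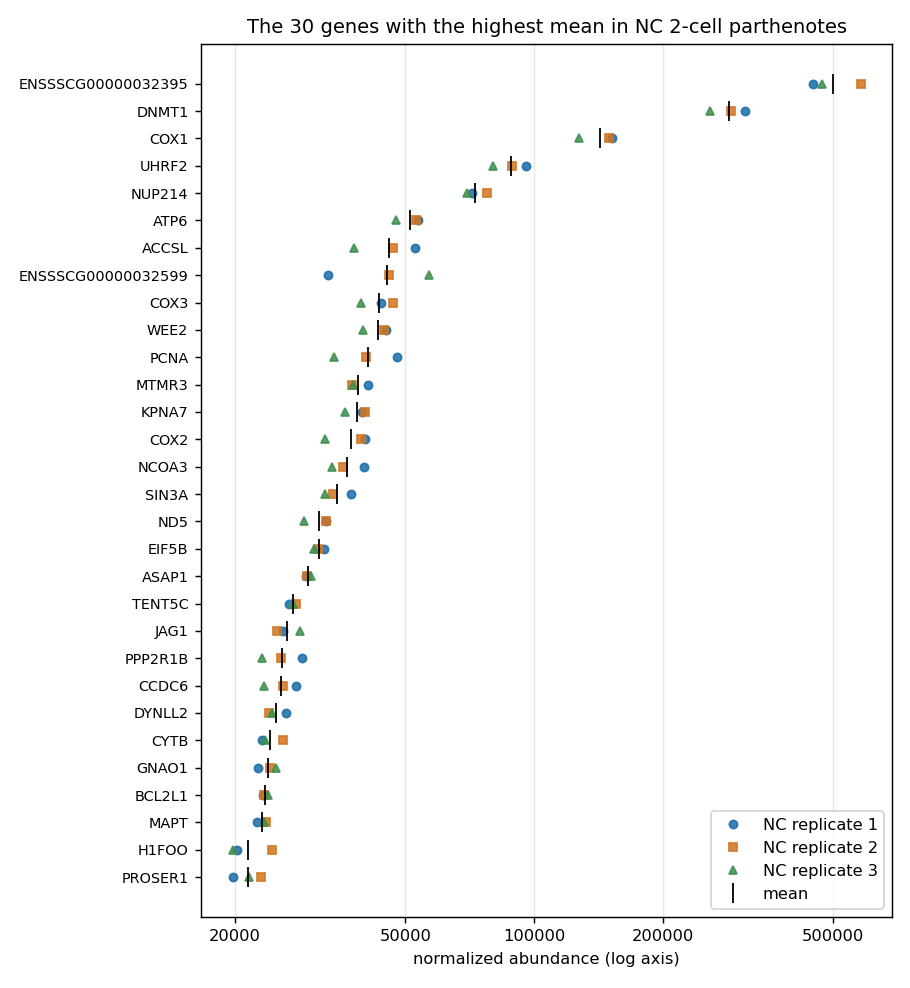
Normalized abundance (log axis) of the 30 genes with the highest mean; each symbol is an NC library and the black tick is the mean of 3. ENSSSCG00000032395 and DNMT1 stand above all others, and most neighbours further down overlap.

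Below these 5 genes the order was less certain. Of the 29 pairs of neighbours among the 30 highest genes, 22 had overlapping ranges. Even so, 28 genes were among the 30 highest of every library, as were 89 of the 100 highest and 915 of the 1000 highest. Rank correlations across the 17678 genes were 0.973, 0.974 and 0.975 for the 3 pairs of libraries, as a description, since genes are not independent replicates. SIN3A itself ranked 16 by mean, with 37361, 33964 and 32404 in replicates 1, 2 and 3.

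Genes of several functions made up the rest of the 30 highest. Signalling genes included JAG1, a Notch ligand, with a mean of 26469 ± 1694 (SD, n = 3, as for all means below), and GNAO1, a G protein alpha subunit, with 23874 ± 1197. PPP2R1B, a scaffold subunit of protein phosphatase 2A, had 25789 ± 2808. ASAP1, an activator of the GTPase activity of ARF proteins, had 29650 ± 461. MTMR3, a phosphoinositide phosphatase, was at 38731 ± 1929 and NCOA3, a coactivator of nuclear receptors, at 36549 ± 3242. TENT5C, a noncanonical poly(A) polymerase, was at 27289 ± 552. BCL2L1, an inhibitor of apoptosis, was at 23496 ± 368, and MAPT, the microtubule-binding protein tau, at 23172 ± 576. CCDC6, DYNLL2 (a dynein light chain) and PROSER1 had means between 21435 and 25679. A second unnamed gene, ENSSSCG00000032599, was at 32974, 45928 and 56977, with the highest CV of the 30 (26.5%). Over the whole table, 2738 genes had no name and held 9.48% of the sum, or 5.04% without ENSSSCG00000032395.

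An order by mean is an order of reads, and longer mRNAs yield more of them. Levels of transcript were therefore compared between genes after division by the length of the longest RefSeq mRNA in kb, available for 14181 genes holding 87.9% of the sum. On this per-kb scale the order was COX1 (92523 ± 8651), ATP6 (75473 ± 4837), COX3 (55237 ± 4807), COX2 (54320 ± 6158) and DNMT1 (50880 ± 4727). COX3 and COX2 changed places between the libraries, and both were above DNMT1 in all 3. The next were UBE2D3, a ubiquitin-conjugating enzyme, at 44097 ± 5102, PCNA, the sliding clamp of DNA polymerases, at 35426 ± 6038, and UHRF2 at 24153 ± 2143. The RefSeq model of UBE2D3 spans 411 bases and holds coding sequence only, so its per-kb value is too high by an unknown factor. Such models without a UTR were found for 74 of 6575 genes with a mean of at least 100. A longest mRNA that is not the main form in these embryos makes the value too low, and in 513 of those 6575 genes it was over 1.5 times the median length of the gene's mRNAs. ACCSL, related to plant enzymes of ethylene synthesis, had 21463 ± 3474 per kb, and FTL, the light chain of the iron store ferritin, 12735 ± 474. Of the 100 highest genes by mean and the 100 highest per kb among genes with a length, 56 were shared. ENSSSCG00000032395, ENSSSCG00000032599 and TENT5C had no RefSeq match and are absent from the per-kb order.

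Transcripts of the mitochondrial genome held 3.57% ± 0.231 of the summed value. All 13 protein genes were found, each with a mean of at least 1000, and 9 were among the 100 highest. Their share was 3.69%, 3.71% and 3.30% in NC replicates 1, 2 and 3. Per kb they held 13.1% of the sum over genes with a length, with a median of 17287 against 24.5 for all such genes above 0. The lowest per kb were ND3 at 6829 and ND4L at 7051, and ATP8 reached 13322. ATP8 overlaps ATP6, ND4L overlaps ND4 and ND6 lies on the opposite strand, so reads of these genes could be split or shared and their values are uncertain.

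Genes of DNA methylation held 3.60% ± 0.242, most of it from DNMT1 and UHRF2. Of 16 genes found, 14 (87.5%) had a mean of at least 100, beside 41.0% of all genes. Per kb, DNMT1 exceeded DNMT3B, a de novo methyltransferase, by 47.8, 41.7 and 40.0 times in replicates 1, 2 and 3. It exceeded DNMT3A, the other de novo enzyme of the list, by 411, 368 and 259 times per kb of an mRNA of 12588 bases, and by 183, 164 and 115 times in value without regard to length. UHRF2 exceeded UHRF1, the cofactor that recruits DNMT1 to hemimethylated DNA, by 8.96, 7.28 and 6.30 times per kb. In value it did so by 7.97, 6.47 and 5.60 times. Each ratio was far from 1 in every library. TET3, the 5-methylcytosine dioxygenase of the oocyte, had 397 ± 51.1 per kb and TET2 40.5 ± 3.60. TDG, a glycosylase of active demethylation, and ZFP57, which protects imprints, had means of only 5.96 ± 5.38 and 4.41 ± 3.55.

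Markers of the oocyte, the source of these embryos, were present. Of 16 genes of the zona pellucida, oocyte growth factors and oocyte transcription factors, 13 (81.25%) had a mean of at least 100. Of 15 maternal-effect genes 13 (86.7%) did, beside 41.0% of all genes. BMP15, a growth factor secreted by the oocyte, was at 21056, 20095 and 19476 in the 3 libraries, and its partner GDF9 at 5111, 4228 and 4726. Both were well above the limit of 100 in every library. Per kb, BMP15 had 8165 ± 322 and GDF9 3512 ± 331, but the RefSeq model of GDF9 holds coding sequence only, so its value is too high by an unknown factor. NLRP9, a member of the oocyte NLRP family, had 2558 ± 116 per kb, PADI6, a component of the cytoplasmic lattices, 2549 ± 141 and ZAR1L 1296 ± 73.5. NLRP9 and PADI6 changed places between the libraries. CD9, a surface protein needed for sperm fusion, was near 0 with a mean of 1.46 ± 2.52, and FIGLA, a transcription factor of early oocytes, had 8.17 ± 1.95. The maternal-effect genes NLRP5, TLE6 and DPPA3 were not analysed here.

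Some gene families have a form known from the oocyte. The pairs given here were chosen after their values were seen, and the oocyte form was the more abundant per kb in 6 of them but not in all. WEE2, the oocyte kinase that inhibits CDK1, had 16337 ± 1118 per kb, whereas WEE1 had 3.23 ± 2.03. PABPC1L, a poly(A)-binding protein of oocytes, had 649 ± 50.6 and PABPC1 9.52 ± 3.32. EIF4E1B, an oocyte form of the cap-binding protein, exceeded EIF4E by 27.4, 30.5 and 34.5 times in the 3 libraries, or 12.2 times by mean without division by length. KPNA7, an importin alpha of the oocyte and early embryo, exceeded KPNA2 by 6.81, 6.44 and 5.66 times per kb. AURKC, the Aurora kinase of meiosis, exceeded AURKB by 21.4, 20.3 and 17.6 times, or 9.50, 9.01 and 7.79 times in value. For YBX2, the germ cell Y-box protein, and YBX1 the per-kb ratio was small, at 1.43, 1.53 and 1.42. The reverse order was found for NPM2, the nucleoplasmin of oocytes, with 254 ± 26.9 per kb, and NPM1 with 3876 ± 230. LSM14B, needed in oocytes, had 205 ± 6.93 and LSM14A 550 ± 109, but the RefSeq model of LSM14A holds no 3′ UTR, so its value is too high by an unknown factor. H1FOO, the linker histone of oocytes, had a mean of 21467 ± 2594, and the somatic H1F0 a mean of 18.97 ± 4.27 but no RefSeq length for a comparison.

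Cell cycle genes held 1.23% ± 0.0320 of the sum. A mean of at least 100 was found for 52 of 62 (83.9%), beside 41.0% of all genes. The highest by mean and per kb was WEE2, at 45103, 44692 and 39792 in NC replicates 1, 2 and 3. CCNB1, which encodes cyclin B1, was at 8891, 9039 and 7729, and BUB1B, a checkpoint kinase, at 7749, 7107 and 6127. All 3 genes had their lowest value in replicate 3. Per kb, CCNB1 exceeded CCNB2 by 5.62, 6.25 and 5.84 times. Its partner kinase CDK1 was at 452, 304 and 253, so CCNB1 exceeded it by 19.7, 29.7 and 30.6 times in value. Per kb the ratios were 73.5, 111 and 114, since the longest CDK1 mRNA has 7639 bases and that of CCNB1 2045. MOS, the kinase that holds the egg at metaphase II, had a mean of 2555 ± 43.3. CCNA1, REC8 and the anaphase-promoting complex genes CDC23 and ANAPC2 had means under 10.

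The list of SIN3 and histone deacetylase complex genes held 0.827% ± 0.0359, of which SIN3A gave the largest single part. Of 24 genes found, 19 (79.2%) had a mean of at least 100, beside 41.0% of all genes. A mean of at least 1000 was reached by 11, and by 13.8% of all genes. Per kb, SIN3A had 6060 ± 444 and exceeded its paralogue SIN3B by 45.5, 40.0 and 33.8 times in the 3 libraries. MXD1, a MAX partner that recruits SIN3, had 3028 ± 92.2 per kb, RBBP7, a histone-binding subunit, 2827 and SUDS3, a core subunit, 1408 ± 120, or 3220 by the median length of its mRNAs. The catalytic subunits were lower, at 431 ± 31.8 per kb for HDAC1 and 232 ± 15.4 for HDAC2. HDAC1 was at 845, 922 and 980 and HDAC2 at 517, 475 and 454, and per kb HDAC1 exceeded HDAC2 by 1.60, 1.90 and 2.11 times. H2AFZ, a histone variant often used as a reference gene in embryo qPCR, was at 175, 113 and 126, with a CV of 23.9%.

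Genes of mRNA storage and clearance were broadly detected: 44 of 47 (93.6%) had a mean of at least 100, beside 41.0% of all genes. Together the 47 held 0.857% ± 0.0222. IGF2BP3, an mRNA-binding protein, had 2747 ± 183 per kb, EIF4ENIF1, a translational repressor that binds eIF4E, 2676 ± 220 and BTG4, an adaptor of the CCR4-NOT deadenylase, 3060 ± 208. BTG4 was above both in every library. The deadenylase CNOT7 had 2671 ± 296 and exceeded its paralogue CNOT8 by 11.8, 8.41 and 8.25 times. CPEB1, which binds the cytoplasmic polyadenylation element, had a mean of 2499 ± 29.3. IGF2BP1 was near 0 with 0.918 ± 0.860.

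Nuclear import receptors, splicing factors and translation factors held 0.689% ± 0.0239, 0.567% ± 0.0222 and 0.641% ± 0.0234. A mean of at least 100 was reached by 21 of 23, 47 of 52 and 24 of 30 genes. HNRNPU, a nuclear matrix and RNA-binding protein, was the highest splicing gene per kb at 2123 ± 125, followed by HNRNPA1 at 1905 ± 61.3. By the median length of its mRNAs HNRNPU had 3512 ± 207. EIF5B, which joins the ribosomal subunits, was at 32369, 31200 and 30587 in replicates 1, 2 and 3. Per kb, EIF5B had 5462 ± 158 and EIF1, a start codon selection factor, 5253 ± 319, and EIF5B was higher in every library by less than the SD of EIF1 in 2 of them. Several other initiation factors were low, with means of 9.86 ± 2.84 for EIF3G and 5.61 ± 4.07 for EIF3F.

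Ribosomal protein genes, abundant in most somatic cells, were not among the leading genes here. The 57 found of 79 listed held 0.106% ± 0.00581 of the sum, or 0.452% of the per-kb sum, and none was among the 100 highest by mean. A mean of at least 100 was found for 22 of them, 38.6% beside 41.0% of all genes. Their median mean was 54.3 beside 53.6 for all genes above 0, and their median per kb was 63.0 beside 24.5. By mean, RPLP0, of the ribosomal stalk, was highest at 2238, 2344 and 2074 in the 3 libraries. RPS3 followed with 1652, 1183 and 1245 and RPL5 with 979, 803 and 901. Per kb, RPLP0 had 2019 ± 124, RPS20 1367 ± 70.4 and RPS3 1021 ± 191. Ribosomal protein genes have many processed copies in mammalian genomes, and reads shared with such copies would make these values uncertain.

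Nuclear genes of oxidative phosphorylation showed a similar level. Of 67 found, 21 had a mean of at least 100, which is 31.3% beside 41.0% of all genes. The 67 held 0.0942% ± 0.000972, against the 3.57% of the 13 mitochondrially encoded genes. SDHA, the flavoprotein of complex II, had 450 ± 31.3 per kb and CYCS, cytochrome c, 781 ± 76.2. The list's median was 66.0 per kb. For glycolysis and pyruvate use, 13 of 22 genes (59.1%) reached 100 and the list held 0.0584%. PDHA1, of the pyruvate dehydrogenase complex, had 365 ± 22.0 per kb, PFKP, a phosphofructokinase, 435 ± 28.5 and DLAT, another subunit of that complex, 344 ± 8.59. GAPDH had a mean of 146 ± 40.4. Of the lactate dehydrogenase subunits, LDHA had 202 per kb, whereas LDHB had 0.220 per kb and a mean of 0.282 ± 0.489.

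Chaperones held 0.741% ± 0.00884, with 35 of 38 genes (92.1%) at a mean of at least 100, beside 41.0% of all genes. The counts in brackets below are of the same kind and stand beside the same 41.0%. HSP90AA1 had 5875 ± 181 per kb, DNAJA1, a cochaperone of HSP70, 4261 ± 296, and HSP90AB1 2032 ± 168. Ubiquitin and proteasome genes held 0.327% ± 0.00284 (36 of 44 genes), led per kb by the polyubiquitin gene UBB at 3659 ± 262 and the lid subunit PSMD3 at 2787 ± 147. Cytoskeletal genes held 0.373% ± 0.00794 (25 of 35), and ACTG1 had 2277 ± 152 per kb beside 397 for ACTB. Histones and their chaperones held 0.464% ± 0.0160 (20 of 24), with NPM1 at 3876 ± 230 and NASP at 1966 ± 169 per kb. Antioxidant genes held 0.161% ± 0.00193 (13 of 29, or 44.8%, near the share over all genes). Among them GCLC and GSR, of glutathione synthesis and reduction, had 1562 ± 136 and 1706 ± 34.3 per kb and the peroxidase PRDX2 2713 ± 228. Lipid droplet and fatty acid genes held 0.293% ± 0.00978 (21 of 33), with HILPDA, an inhibitor of lipolysis, at 4352 ± 420 and the acyl-CoA synthetase ACSL3 at 2097 ± 114 per kb.

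Transcription factors of pluripotency and of the early embryo ranged widely. Of 31 found, 13 (41.9%) had a mean of at least 100, beside 41.0% of all genes, and the median was 14.6 per kb beside 24.5 for all genes above 0. YAP1, the Hippo pathway coactivator, was the highest per kb at 2395 ± 99.3, with 10631, 10765 and 9956 in NC replicates 1, 2 and 3. SALL4 had 4934, 5382 and 4534. OTX2, which is also on the list of oocyte growth factors and regulators, had 4147, 3914 and 4212. All of these were far above 100 in each library. SOX2 had a mean of 278 ± 45.4, CDX2, a trophectoderm factor, 14.1 ± 6.30 and NANOG, a factor of pluripotency, 0.493 ± 0.853. Imprinted genes held 0.0866% ± 0.000690, with 12 of 28 (42.9%) at 100 or more, near the 41.0% of all genes. Their median was 19.3 per kb, beside 24.5 for all genes above 0. Per kb, PEG10 had 330 ± 8.13, INPP5F 212 ± 3.76 and TFPI2 203 ± 25.0. MEST, second by mean at 1622 ± 106, had 117 ± 7.63. The place of MEST is uncertain, since its longest mRNA has 13839 bases and by the median length of its mRNAs it had 645 ± 42.0. That of SNRPN is uncertain too, with 62.3 per kb by its longest mRNA and 339 ± 30.2 by the median length. INPP5F and TFPI2 changed places between the libraries.

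Markers of other cell types held little of the summed value. Whether their transcripts came from the embryos or from carried-over cells cannot be told apart here and was not tested. Of 29 markers of cumulus and granulosa cells, 19 had a mean under 10. A mean of at least 100 was found for 4 (13.8%, beside 41.0% of all genes), namely LAMB1, VCAN, GREM1 and VIM. The list summed to 7114, 6284 and 6430 in NC replicates 1, 2 and 3, or 0.0586% ± 0.00377 of the value, and LAMB1, a laminin subunit, gave most of it with 5542, 4771 and 4978. VCAN, a matrix proteoglycan, was at 925, 762 and 761, GREM1, a BMP antagonist, at 282, 271 and 219, and VIM, an intermediate filament, at 108, 168 and 90.1. SERPINE2 at 96.3 ± 6.24, FST at 59.9 ± 6.16, FN1 at 41.6 ± 30.8, COL1A2 at 38.2 ± 14.8, NR5A1 at 25.2 ± 11.2 and STAR at 13.3 ± 6.95 lay between 10 and 100. Among those under 10, CYP19A1, which makes estrogen, had a mean of 1.83 ± 1.78, CYP11A1, which starts steroid synthesis, 4.42 ± 1.29, the luteinizing hormone receptor gene LHCGR 0.821 ± 0.919, the inhibin gene INHA 1.67 and AMH 0.835 ± 0.753.

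Markers of other tissues held 0.00963% ± 0.000785 and summed to 1151, 996 and 1114. EPCAM, an epithelial adhesion protein, was the highest of 26 at 560, 499 and 504. VWF had a mean of 146 ± 19.3, but the reference gives its ID the name of another gene, so the identity is uncertain. DES was at 0 in all 3 libraries. The hemoglobin gene HBB was at 74.9 in replicate 1, 0 in replicate 2 and 1.68 in replicate 3, and ALB at 49.5, 53.5 and 137. Their part in other results was not tested. Of the Y-linked list only DDX3Y was found, at 2.82, 0 and 2.30.

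**Figure D2:**
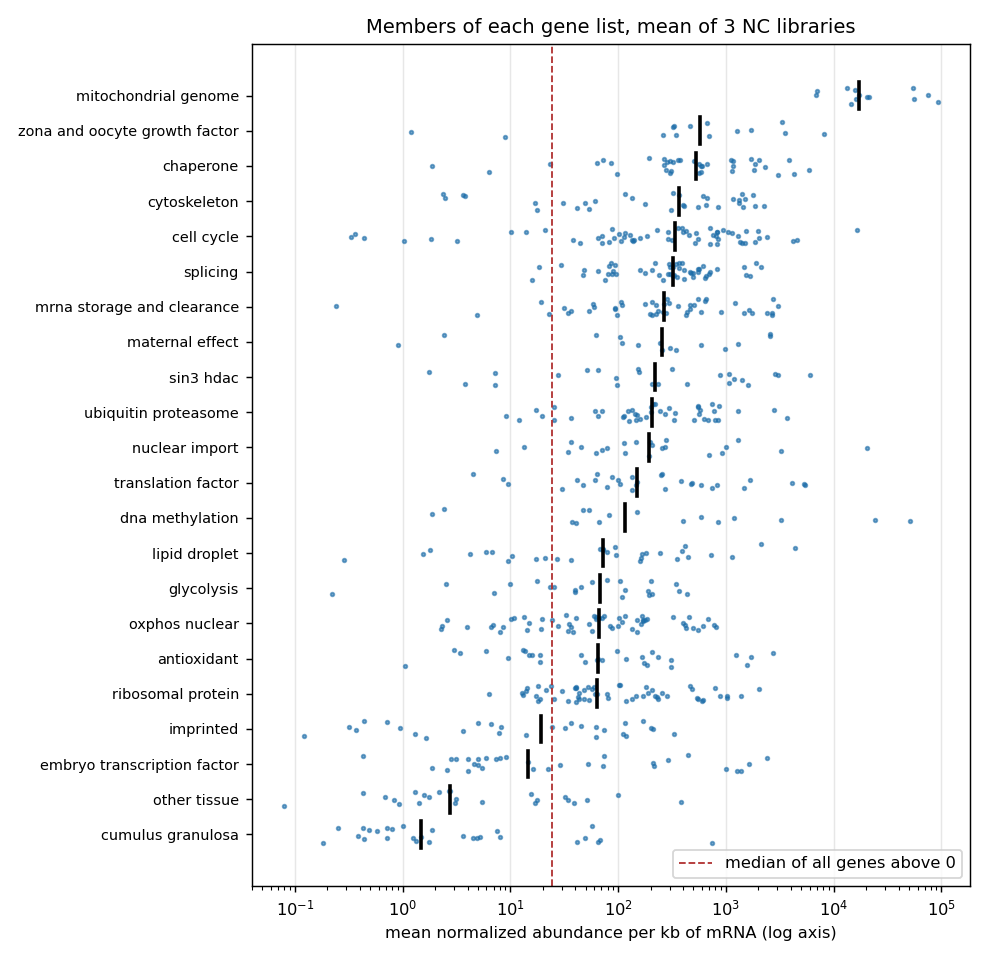
Mean abundance per kb of mRNA (log axis) of each member of the 22 gene lists with at least 10 genes found and a length for at least 80% of them; black ticks are list medians, the dashed line is the median of all genes above 0, and members at 0 are not drawn. Mitochondrial genes stand far to the right, and cumulus and granulosa markers far to the left.

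Spread between the libraries fell with abundance but stayed above counting error. The median CV of the 7251 genes with a mean of at least 100 was 9.39%, beside an expected CV of 4.44% from counting error alone. A median CV of 3 values tends to lie below the expected CV, so the counting values given here are not strictly alike to it. For means from 1 to 10 the median CV was 72.6% against 56.9% from counting, and for means of at least 10000 it was 6.92% against 0.866%. Of 2440 genes with a mean of at least 1000, 1711 (70.1%) had a CV under 10%. The steadiest of these, TMEM9B, MED28, ANKRD28, FURIN and STX7, had CVs between 0.0428% and 0.262%, which is below counting error and is the low end of 2440 values. The most variable were SLC18A2, a vesicular monoamine transporter, with 1987, 1027 and 1120 in replicates 1, 2 and 3 (CV 38.4%), and HEPACAM, a cell adhesion protein, with 24228, 19005 and 13050. ZP2, a zona pellucida glycoprotein, was at 2015, 1231 and 1272. SLC18A2 and ZP2 were high in replicate 1 and alike in the others, whereas HEPACAM differed among all 3. The unnamed pair ENSSSCG00000035789 and ENSSSCG00000037223, also among the 10 most variable, had equal values in replicates 2 and 3 (3129 and 2336) and 1750 and 1751 in replicate 1. Whether they share reads was not tested, so both values are uncertain.

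Deviations between the libraries varied with base composition, most in replicate 1. Among genes with a mean of at least 100, the median log2 deviation of replicate 1 from the mean of the libraries was 0.13 in the tenth of lowest GC content (median 37.6%) and -0.19 in the tenth of highest (63.9%). Replicate 2 ran from -0.05 to 0.10 and replicate 3 from -0.07 to 0.09. Deviations of a gene sum to 0, so trends of both signs follow from the calculation. Of the 100 most variable genes with a mean of at least 1000, 56 were lowest in replicate 1, and the 50 of these with a known sequence had a median GC content of 62.9%. Those highest in replicate 1 had 40.8%. Single genes went the other way: SLC18A2 and HEPACAM, the most variable of these and highest in replicate 1, had 53.9% and 56.2%, above the median of 51.8% for nuclear genes. NANOS1, a translational repressor, was lowest in replicate 1 at 818, 1482 and 1362, as were IER3 at 935, 1707 and 1457, MEX3D at 1510, 2737 and 2308 and BICRA at 1462, 2618 and 2273. Without replicate 1 the median CV of genes with a mean of at least 100 was 5.92%, against 8.82% without replicate 2 and 8.29% without replicate 3. These rest on fewer values per gene than the CV of all 3 libraries and are not comparable with it. The part of base composition in the spread of single genes was not tested.

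**Figure D3:**
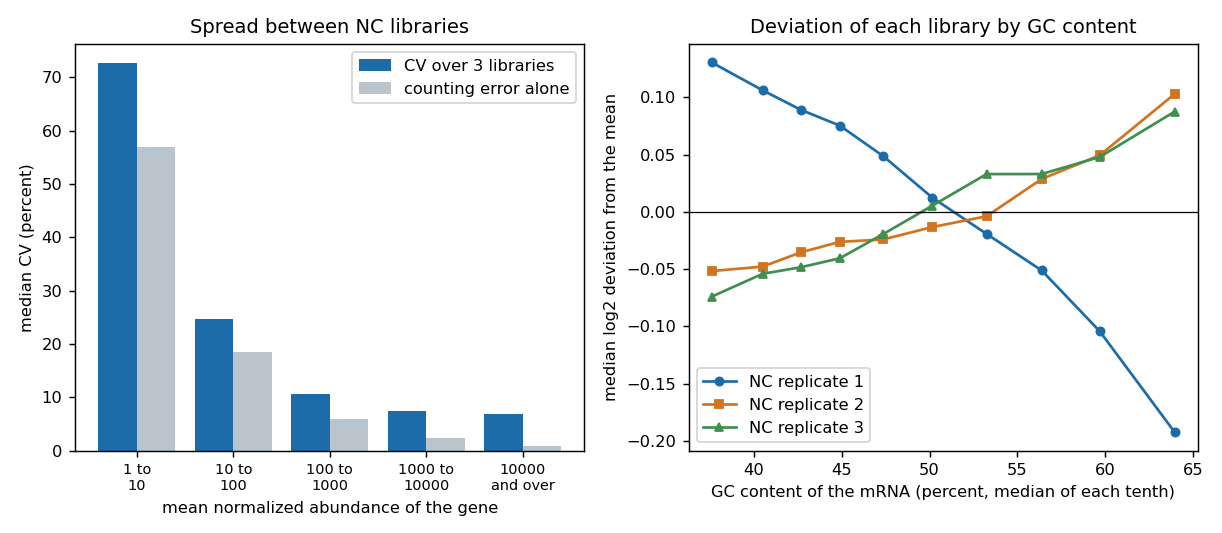
Left, median CV over the 3 NC libraries by mean abundance, beside the CV expected from counting error alone. Right, median log2 deviation of each library from the mean of the 3 by GC content of the mRNA; replicate 1 has the widest range, from 0.13 to -0.19.

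Abundant mRNAs differed in length according to the scale used. Nuclear genes above 0 had a median mRNA of 3477 bases, the 100 highest by mean 5015 and the 100 highest per kb 2327. Median 3′ UTR lengths were 1042, 1499 and 594 bases. Across 13949 nuclear genes the rank correlation of mRNA length was 0.217 with the mean and -0.0450 with the per-kb value. Genes of the X chromosome had a median of 21.7 per kb beside 24.6 on the autosomes, and 43.5% of them had a mean of at least 100 beside 46.5%.

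The last 100 bases of the RefSeq mRNA were searched on the mRNA strand for the polyadenylation signals AATAAA and ATTAAA and for the U-rich element written TTTTAT or TTTTAAT in DNA letters, the form of the cytoplasmic polyadenylation element. The U-rich element was found in 31 of the 100 nuclear genes highest per kb that have a 3′ UTR of at least 100 bases, and in 18.5% of all 12914 such genes above 0. It was found in 13.0% of those with a mean under 10. The last letters of either form of the element can be the first of AATAAA or ATTAAA. Counting elements apart from any signal gave 29 of 100 and 17.1%. A signal was present in 85 of 100 and in 75.6%. These matches describe letters and not the use of a site.

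In 12 of those 100 genes an element lay ahead of a signal with both in a stretch of at most 30 bases, beside 3.82% of the 12914 genes and 6 of the 100 highest by mean. The 5 of these 12 genes with the highest per-kb value are shown for the spacing, a choice made after the values were seen. Sequences are from RefSeq on Sscrofa11.1, 5′ to 3′ on the mRNA strand, with element and signal in capitals.
ACCSL (chr2:18271084-18271110, minus strand, 3′ UTR): atTTTTATattcaatacatAATAAAtt
F3 (chr4:122837636-122837654, plus strand, 3′ UTR): acTTTTATataAATAAAgg
AHSA1 (chr7:100520303-100520332, plus strand, 3′ UTR): tcTTTTATgtgtacatacgctaAATAAAcg
HILPDA (chr18:19944942-19944960, minus strand, 3′ UTR): ttTTTTAATgaAATAAAgt
CNN3 (chr4:122528318-122528334, plus strand, 3′ UTR): ttTTTTATaAATAAAta
The bases between element and signal numbered 11 in ACCSL, 3 in F3, 14 in AHSA1, 2 in HILPDA and 1 in CNN3, and those of the other 7 genes lay between 2 and 13. F3, the tissue factor of coagulation, was at 8272, 9464 and 8059 in NC replicates 1, 2 and 3, and AHSA1, an activator of the HSP90 ATPase, at 6657, 6292 and 6191. CNN3, an actin-binding calponin, was at 8377, 8419 and 7420. All 3 genes were lowest in replicate 3.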

How the data were processed

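Poly(A) RNA of 20 pooled embryos per library was sequenced by the authors. Per the submitters' processing notes, reads were assigned to Sscrofa11.1 transcripts with Salmon 0.14.1 and processed with DESeq2. The deposited signal is a normalized abundance per gene, not corrected for length; GFP and RFP spike-ins named in the labels are not used here. The 3 NC columns were read as deposited, and each gene was described by its mean, SD and CV. No groups were compared and no test was run. The value of 1 read was the step that took in the largest share of the values up to 12 steps, within 0.03 of a step (62.2%, 59.2% and 49.1% of them in NC replicates 1, 2 and 3), and counting error was taken from it. It covers counting error only. The replicates are described as independent, but whether each pool came from its own collection of ovaries is not given in the sources used here, so the SD may be partly technical.

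Names came from the table, with 837 of its 3575 unnamed genes named by a reference table; for 60 IDs the names differed. Lengths, GC content and sequence came from RefSeq for Sscrofa11.1. Genes were named by these rules: the 30 highest means, the 20 highest per kb, the 3 highest of each of 25 lists, the 10 highest and 5 lowest CVs at a mean of at least 1000, SIN3A, CCNB1, HDAC1, HDAC2 and H2AFZ, and markers of other cells with a mean of at least 100. A gene that these rules name is not reported here. Further genes, such as family members and genes near 0, were chosen after their values were seen. Members and lists were chosen with earlier results of these data known. In the cell cycle list, 1 symbol (MYT1, the old name of PKMYT1 and the name of another gene) was corrected after the values had been seen. List members were not matched through a reference name that conflicted with the table's. Python 3.11.15, numpy 2.4.6, pandas 2.3.3, pysam 0.24.0 and matplotlib 3.10.9 were used, and the functions were tested on simulated data.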

Additional observations from a re-analysis of the deposited data

How the results depend on the processing

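No paired analysis was possible because no groups were compared. The counts of genes (580 for 50% of the sum, 7251 with a mean of at least 100, and 56 shared by both orders) stayed within 1.5 times under every alternative run. Scaling the columns to one sum moved no share or CV by more than 1 SD. Per kb, the 10 highest genes held 15.2% and the 100 highest 32.5%. With models that have a UTR only, an alternative chosen after seeing the data, the shares were 15.0% and 32.1%. All per-kb shares, also those of the lists below, are over genes with a length only. That set leaves out ENSSSCG00000032395, so the change is not of length alone. Without the mitochondrial genes the 100 highest held 23.7%. The median CV was 13.1% at a mean of at least 10 and 7.38% at a mean of at least 1000. With 1 library left out it ran from 5.92% to 8.82%, lowest without replicate 1. Those CVs rest on fewer values per gene, which tends to lower a median CV. They can be compared with each other but not with the CV of all 3 libraries.

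All 23 lists that could be compared per kb moved: mitochondrial genome 13.1%, DNA methylation 2.61%, cell cycle 1.81%, chaperones 1.25%, nuclear import 0.955%, mRNA storage 0.938%, splicing 0.750%, translation factors 0.750%, zona and growth factors 0.674%, SIN3 and deacetylases 0.672%, cytoskeleton 0.637%, ubiquitin and proteasome 0.635%, ribosomal proteins 0.452%, lipids 0.367%, the 5 genes the study names 0.353%, maternal effect 0.306%, antioxidants 0.302%, embryo transcription factors 0.294%, nuclear oxidative phosphorylation 0.286%, glycolysis 0.0834%, imprinted genes 0.0526%, cumulus and granulosa 0.0345% and other tissues 0.0229%. For histones and the Y-linked gene the per-kb check is void, because fewer than 80% of members have a length.

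Without the mitochondrial genes in the sum, 14 of 24 shares moved, through the smaller sum: cell cycle 1.27%, mRNA storage 0.888%, chaperones 0.768%, nuclear import 0.714%, translation factors 0.665%, histones 0.481%, cytoskeleton 0.387%, ubiquitin and proteasome 0.339%, lipids 0.304%, embryo transcription factors 0.239%, antioxidants 0.167%, nuclear oxidative phosphorylation 0.0977%, imprinted genes 0.0898% and glycolysis 0.0606%. With the median of the columns, 2 of 25 moved, embryo transcription factors to 0.235% and nuclear oxidative phosphorylation to 0.0954%; the cause was not tested. At a mean of at least 10 the Y-linked list had no member left. Depth limits genes with means under 100: at means from 10 to 100 the median CV was 24.6%, against 18.5% from counting error alone.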
